A study of Mus musculus with 2 samples.

Results

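Chromatin immunoprecipitation followed by sequencing (ChIP-seq) gave a list of sites recovered with an anti-c-Fos antibody from mouse bone marrow mesenchymal stem cells. Of its 10870 peaks, 12 had their centre in a 250 kb window of chromosome 19, from 5.70 to 5.95 Mb in build mm9, and these are described here. Members were chosen by the position of their peak centre. The window was set for the genes Malat1 and Neat1, with the number of peaks in the region known, so peak positions are the values that chose it. The other 17 peaks of the surrounding megabase, from 5 to 6 Mb, served for comparison. The selection named that megabase as rich in peaks, so it is no neutral background. The cells were p53KO, that is, without the tumour suppressor p53, and they expressed cFos. They had been passaged fewer than 20 times. Both libraries came from cells of this kind: 1 ChIP library, made with 50000000 fixed cells and 10 ug of antibody, and 1 input library of DNA without immunoprecipitation. The study's title links c-Fos with Sox9, a regulator of cartilage formation, in osteosarcoma of the chondroblastic kind, and the measurement asks where c-Fos lay on DNA.

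Cells lacking c-Fos are not among the samples, so a site cannot be set against its level without the factor. The single ChIP library leaves no replicate error and no test between groups. The score is the authors' deposited value for each peak. Its scale is not stated, and it served only to describe and rank peaks within the list. The lowest score in the list was 50.01 and the highest 1685.19. The sequencing depth is unknown, since no read counts were used here. Peaks are called c-Fos peaks as obtained with this antibody, whose specificity was not tested. The labelled cell type could not be checked against marker genes in a peak list alone.

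Malat1 and Neat1 are long noncoding RNAs that stay in the nucleus. Malat1 RNA gathers in nuclear speckles, which hold splicing factors, and a small tRNA-like RNA, mascRNA, is cut from its end. Neat1 RNA is the scaffold of paraspeckles, nuclear bodies built with RNA-binding proteins, and its long isoform is the one they require. c-Fos binds DNA with a Jun partner as AP-1, whose preferred sequence is a short palindrome.

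The peaks could not be placed in or beside either gene. The positions that the selection gave for Malat1 and Neat1 as mm9 differed by at most 28 bp from those in a RefSeq gene table of another build, GRCm38.p6. They were therefore not used as mm9 positions, and no coordinates were converted between builds. As a result 0 peaks were joined to genes, and whether any of the 12 lies in Malat1 or Neat1 was not analysed here. What follows describes the window and not the 2 genes.

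The gene table served for names and order alone. In it Malat1, a lncRNA gene of 6983 bp with 1 RefSeq transcript, is followed by Neat1, of 20773 bp with 2 RefSeq transcripts. Mascrna, of 58 bp, lies inside Malat1. Of the genes around the pair, those with a promoter sequence at hand are named. On one side they are Ehbp1l1, Znrd2 and Ltbp3. Ltbp3 encodes a protein that binds latent TGF-beta in the extracellular matrix. On the other they are Frmd8, Slc25a45, Tigd3, Dpf2 and Gm42067. Slc25a45 belongs to the family of mitochondrial carriers, and Dpf2 encodes a subunit of the BAF chromatin remodelling complex. Which of these genes the c-Fos peaks lie nearest to was not analysed here.

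Promoter sequences from RefSeq, of build GRCm38.p6, were scanned for the letters of the AP-1 motif and of a related motif. Each runs from 250 bases before to 50 bases after a gene's start. Of the genes named, 9 had an entry, with 10 promoters in all. Mascrna and Neat1 had none. The 2 promoters of Ehbp1l1 overlap, as do those of Dpf2 and Gm42067 on opposite strands. Some stretches are therefore counted more than once among the 10. The sequence of Malat1 is shown as the start of a gene the window was chosen for, and that of Ltbp3 as the one of the 10 promoters that held the AP-1 motif. Malat1 is on the minus strand at chr19:5802623-5802922 and Ltbp3 on the plus strand at chr19:5740650-5740949. Both positions are GRCm38.p6 and cannot be compared with the peak positions, which are mm9. Capitals mark the match to the motif.

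Malat1: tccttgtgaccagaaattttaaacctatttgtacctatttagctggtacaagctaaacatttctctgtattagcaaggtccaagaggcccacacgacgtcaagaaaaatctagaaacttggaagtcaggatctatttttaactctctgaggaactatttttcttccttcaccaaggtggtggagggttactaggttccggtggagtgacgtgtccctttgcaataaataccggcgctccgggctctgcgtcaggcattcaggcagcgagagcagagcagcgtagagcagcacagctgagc

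Ltbp3: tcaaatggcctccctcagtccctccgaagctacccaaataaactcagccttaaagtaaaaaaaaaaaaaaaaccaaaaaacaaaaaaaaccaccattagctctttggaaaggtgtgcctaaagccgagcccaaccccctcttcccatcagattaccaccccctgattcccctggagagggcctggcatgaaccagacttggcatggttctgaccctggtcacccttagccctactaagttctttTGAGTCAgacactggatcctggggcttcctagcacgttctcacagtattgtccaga

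In the Ltbp3 promoter the match to TGANTCA began at base 245 of the 300, counted from its 5′ end. The Malat1 promoter held no match, so it is all in lower case. The AP-1 motif TGANTCA, searched on both strands, was in 2565 of 32851 promoters of the table (7.81%). The motif TGACGTCA, the cyclic AMP response element, a match to which cannot also match TGANTCA, was in 588 (1.79%) and in 0 of the 10 promoters here. These are matches of letters in sequences to which no peak was joined. The lack of a match says only that these letters are not in that stretch.

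The window held 4.80 c-Fos peaks per 100 kb, and the rest of the megabase 2.27. The rest was itself uneven. No peak centre lay in the 258 kb before its highest-scoring peak, at chr19:5345004-5346592, while its peak at chr19:5447463-5449399 lay in a group of 4. Its 2.27 is thus an average over empty and dense stretches, and not the density of each part. Peaks covered 12.0 kb of the window (4.81%) and 17.4 kb of the other 750 kb (2.32%). The ratio of the 2 densities was 2.12, with an exact 95% interval of 0.923 to 4.70 from the split of the 29 peaks. This interval covers counting error at most, and it treats the peaks as independent. Yet 7 of the 12 in the window and 9 of the 17 in the rest had a neighbour within 10 kb. The window had also been chosen with peak positions in view, so its density is a description and was not tested.

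Laid across chromosomes 1 to 19 and X in step with this window, 10210 windows of 250 kb lay between the first and last peaks. Of these, 6 (0.0588%) held at least 12 peaks, this one included, and 5789 held no peak. On chromosome 19, 0 of the 233 windows held more. Elsewhere 2 windows did, on chromosome 13 with 16 peaks and on chromosome 6 with 14. These counts depend on where the windows begin. The described window was chosen with the number of peaks in the region known, and the others were laid in step with it. A high place among them was thus to be had from the choice itself, and the rank is a description that was not tested.

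**Figure D1:**
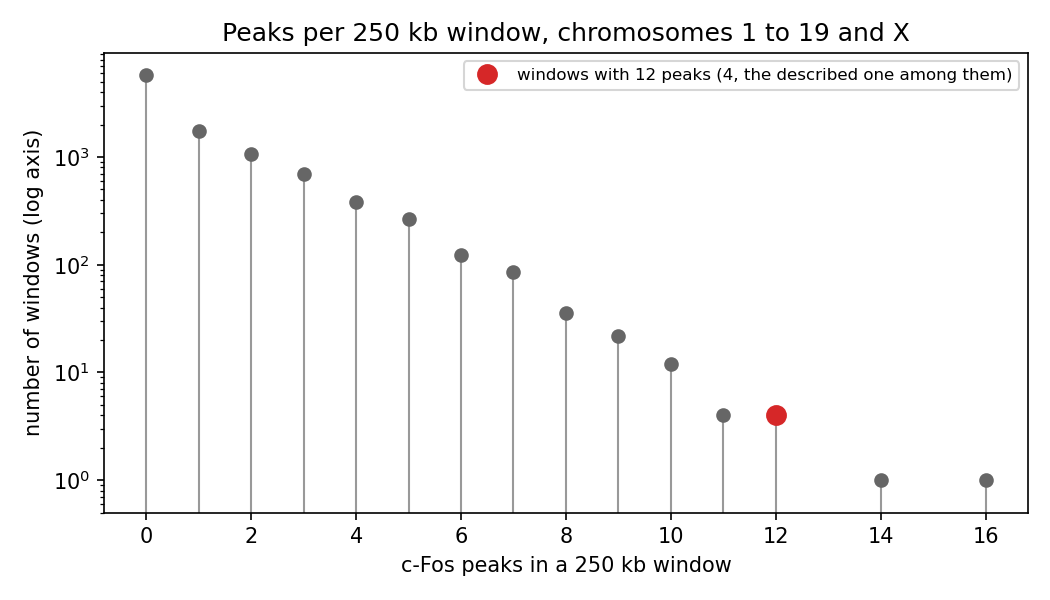
Number of 250 kb windows (log axis) by the number of c-Fos peaks they held (horizontal axis), for 10210 windows on chromosomes 1 to 19 and X. The red point marks the 4 windows with 12 peaks, the described one among them, and 2 windows held more. The described window was chosen with the number of peaks in the region known.

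Scores of the peaks in the window lay near the middle of the list. Their median was 92.0 (95% interval from order statistics 65.2 to 243), against 90.4 in the rest of the megabase (69.5 to 167) and 101 in the whole list. Of the 12, 5 (41.7%, Wilson 95% interval 19.3 to 68.0) scored at least 100, while 50.7% of all peaks did. In the rest of the megabase it was 7 of 17 (41.2%). A score of at least 200 was reached by 3 of the 12 (25%, Wilson 95% interval 8.89 to 53.2), against 18.6% of all peaks and 3 of 17 in the rest. These intervals describe the 12 peaks of 1 library and treat them as independent, although 7 of them lay in 2 close groups. The scores were not tested against those of the list.

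The highest score of the window was 332.28, at chr19:5817694-5818765. This peak was 1072 bp wide and ranked 717 of 10870, above 93.4% of the list. It stood alone, with its nearest neighbour 18.8 kb away. The second, at chr19:5877442-5878818, scored 271.97 and was the widest of the window at 1377 bp. It too stood alone, 27.7 kb from its nearest neighbour. The third, at chr19:5743472-5744354, scored 242.77 with a width of 883 bp and lay in a group of 3. None of the 3 reached the 2 highest scores of the rest of the megabase, 598.25 at chr19:5345004-5346592 and 539.26 at chr19:5429371-5430662. The next score in the rest, 300.78 at chr19:5447463-5449399, fell between the 2 highest of the window.

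**Figure D2:**
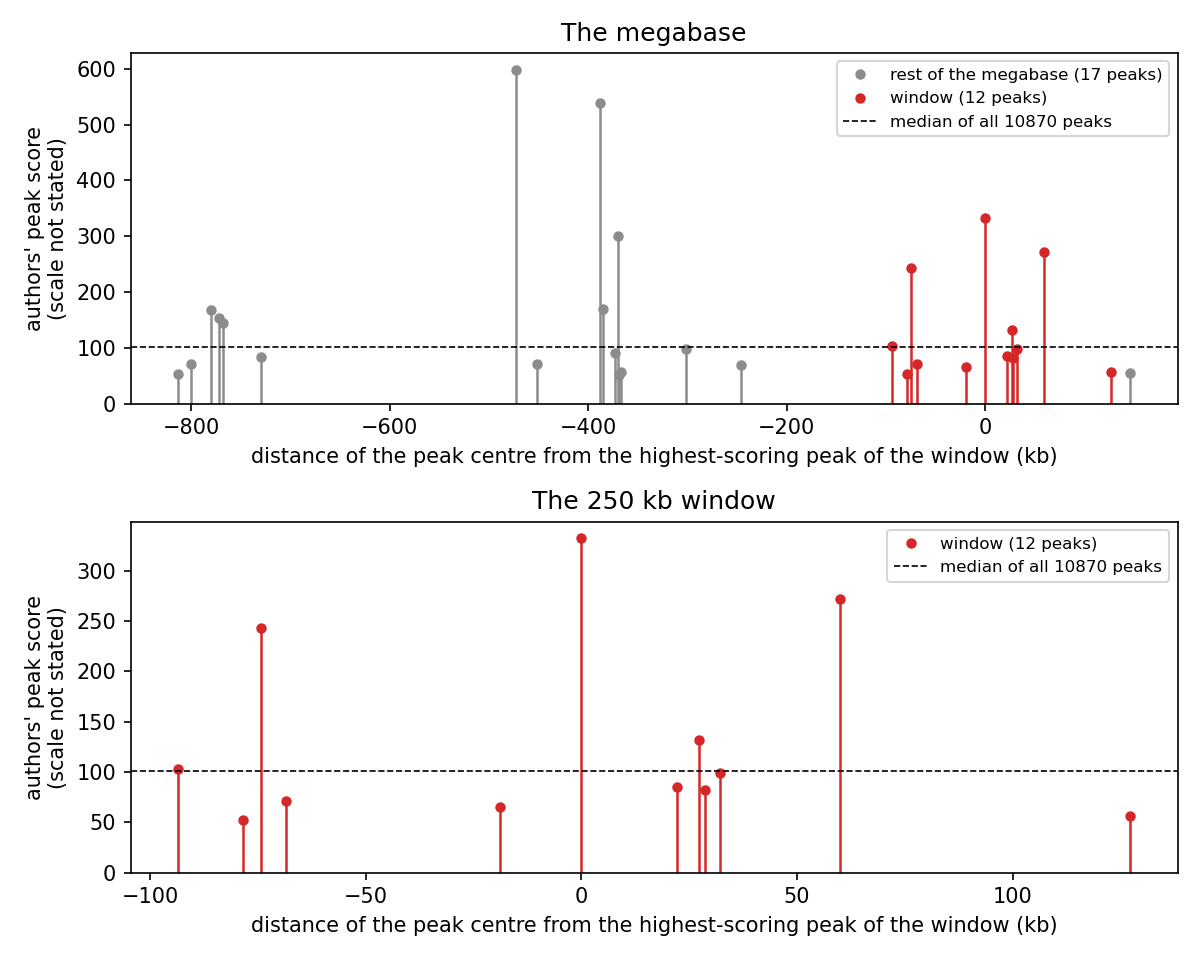
Authors' score of each peak (vertical axis, scale not stated) against the distance of its centre from the highest-scoring peak of the window (kb), for the megabase above and the window below. Red marks the 12 peaks of the window, grey the other 17, and the dashed line the median of all peaks, 101; 5 of the red peaks lie above it.

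Most of the peaks lay in close groups. A neighbour within 10 kb, centre to centre, was present for 7 of the 12 (58.3%) and for 9 of the 17 in the rest (52.9%), against 27.3% of all peaks. As dense regions hold closer peaks, nothing is read from that difference. The median distance between neighbouring centres inside the window was 14.9 kb over 11 distances (95% interval 3.40 to 49.7), and it was 65.2 kb in the whole list. With the 5 peaks of the window that scored at least 100 alone, it was 30.0 kb. Many peaks in 250 kb must lie close, and their number was known when the window was chosen. The distances thus restate its density, and nothing is read from them either. Their interval treats the 11 distances as independent.

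The larger group held 4 peaks within 11.0 kb, from 5839895 to 5850896. The first, chr19:5839895-5841093, scored 85.26 and was 1199 bp wide. The second, chr19:5845016-5846027, scored 132.14 and was 1012 bp wide. The third, chr19:5846599-5847385, scored 82.19 and was 787 bp wide. It began 571 bp after the end of the second, the closest pair of the window. The fourth, chr19:5849886-5850896, scored 98.81 and was 1011 bp wide. Peaks covered 36.4% of this stretch.

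Scores in this group were close together and low for a group of its size. The list held 64 runs of exactly 4 peaks in which each centre lay within 10 kb of the next. Their highest scores had a median of 217, from 68.85 to 915.21, and 10 of the 64 had a lower top score than the 132.14 here. The stretch was also short, at 11.0 kb against a median of 14.5 kb, with 14 of the 64 runs shorter. The group was singled out after its values were seen, so these ranks are a description.

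The smaller group held 3 peaks within 10.9 kb, from 5739331 to 5750190. Its middle peak is the one that scored 242.77. On one side, chr19:5739331-5740117 scored 52.54, the lowest of the window, with a width of 787 bp. On the other, chr19:5749220-5750190 scored 71.51 with a width of 971 bp. A single higher peak thus lay between 2 peaks of low score, unlike the even scores of the group of 4. Of the 163 runs of exactly 3 peaks in the list, 104 had a lower top score than this one, and their median top score was 198.

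The other 5 peaks stood alone. Besides those scoring 332.28 and 271.97, they were chr19:5724219-5725338, scoring 103.29 and 1120 bp wide, chr19:5798981-5799922, scoring 65.21 and 942 bp wide, and chr19:5944989-5945844, scoring 56.25 and 856 bp wide. Their median score was 103 (56.25 to 332.28), while that of the 7 peaks in groups was 85.3 (52.54 to 242.77). The ranges overlap over most of their length. In the rest of the megabase the order was the opposite, with a median of 154 for the 9 peaks in groups and 72.0 for the 8 on their own. In the whole list grouped peaks were also the higher, at 109 against 98.9. With so few peaks, and those in a group sharing their region, the difference was not tested.

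Widths lay near the middle of the list as well. The median width was 991 bp in the window (95% interval 856 to 1120 bp) and 991 bp in the rest of the megabase (888 to 1114 bp), against 949 bp over all peaks. Widths ran from 787 to 1377 bp in the window and from 520 to 1937 bp in the rest. Score and width of the 12 peaks had a Spearman's rho of 0.66, against 0.88 for the 17 others and 0.70 for the whole list. These describe peaks of 1 library, which share its depth. The intervals of the widths treat peaks as independent, although 7 of the 12 and 9 of the 17 had a neighbour within 10 kb.

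Some peaks of the window departed from the width usual at their score. Each was set beside all peaks of the list whose score lay within 10% of its own. The first peak of the group of 4, at chr19:5839895-5841093, was 1199 bp wide where 1356 peaks of like score had a median of 925 bp, and it was wider than 98.6% of them. The peak at chr19:5724219-5725338 was wider than 95.2% of its 1204 peaks of like score, whose median was 953 bp. The peak scoring 271.97 was 1377 bp wide against a median of 1096 bp, wider than 88.4% of 491 peaks. The peak scoring 242.77 went the other way, at 883 bp against 1080 bp, and just 4.80% of 563 peaks were narrower. These peaks were singled out after their widths were seen. The rest of the 12 were wider than between 11.2% and 86.4% of their peaks of like score. Of the 12, 8 were wider than the median at their score and 4 narrower. A median by itself puts about as many peaks on either side, so nothing is read from that count. Whether the wide ones hold more than 1 site was not tested.

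**Figure D3:**
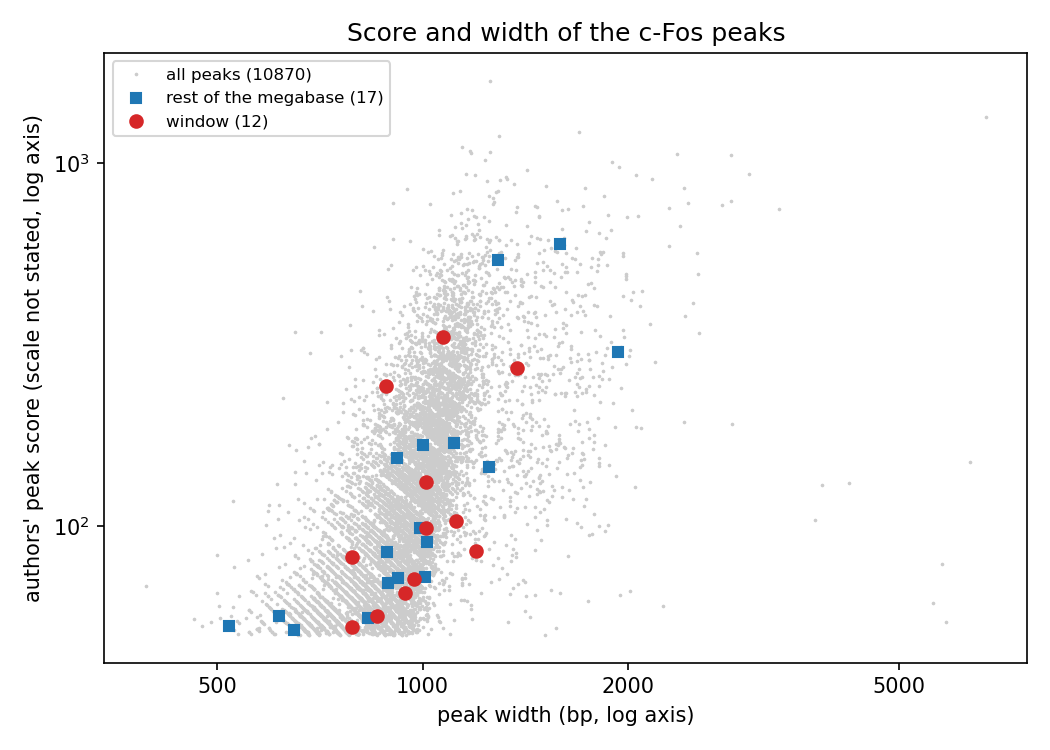
Authors' score (log axis, scale not stated) against peak width (bp, log axis) for all 10870 peaks in grey, the 12 of the window in red and the other 17 of the megabase in blue. The red points lie within the grey cloud, between 787 and 1377 bp, and the 3 highest score 242.77, 271.97 and 332.28.

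The peaks were not spread evenly over the window. No peak centre lay in the 49.7 kb between the group of 3 and the peak scoring 65.21, nor in the 67.3 kb between the peak scoring 271.97 and the last one. The first peak inside the window, with a score of 103.29, was 152 kb from the nearest peak outside on that side, chr19:5572136-5573025, which scored 69.47. At the other edge the last peak inside, with a score of 56.25, was 18.9 kb from chr19:5963925-5964756, which scored 55.64. The window thus ended in a wide gap on one side, and on the other between a pair of peaks of like score.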

How the data were processed

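Sites were mapped by ChIP-seq in 1 c-Fos ChIP library and 1 input library, grouped by the antibody in the labels. The 1 file used was the peak list of the ChIP library, with a score per peak deposited by the authors on a scale the file does not state. CASAVA 1.8.2, MACS 1.4.1 and mm9 are named, with no roles, per the submitters' processing notes. The aligner, the threshold and whether the input served as control were not given in the sources used here. Positions were read as BED and printed 1-based. Peaks were assigned to the window by their centre. Every peak of the window is named, with the 3 highest of the rest of the megabase, the nearest peak beyond each edge and, of the 5 genes on either side of the pair, those with a promoter sequence; 1 gene is not reported here. The members and lists were chosen with earlier results of these data known, and no test was made. The paraspeckle protein genes that had been listed were not joined to peaks, since the gene table is of another build. Procedures were tested on simulated positions and sequences, and all 7 checks recovered what had been planted. The alternatives tried were a minimum score of 100, the list without its widest 5%, joining peaks within 2 kb, assignment by overlap, and windows 50 kb shorter or longer on each side. Python 3.11.15, numpy 2.4.6, pandas 2.3.3, scipy 1.17.1 and matplotlib 3.10.9 were used.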

Additional observations from a re-analysis of the deposited data

How the results depend on the processing

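Of 35 values recomputed under 6 alternatives, 33 stayed within the interval of the main value, or within 1.5 times it for a count, and 2 moved. The intervals are wide with 12 peaks, so this does not measure stability. The number of peaks in the window fell from 12 to 5 at a score of at least 100, which removes peaks by construction, and to 7 in a window 50 kb shorter on each side. The ratio of peak density in the window to that in the rest of the megabase lay between 1.51 and 2.36 over the alternatives, and the median score between 85.3 and 243, its top set by the filter on score. The median distance between neighbouring centres lay between 10.4 kb, without the widest 5%, and 30.0 kb, at a score of at least 100, where fewer peaks are left. Sites scoring under 50.01 are not listed, and without read depth their number is not known. No paired analysis was possible because there is a single ChIP library.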
